A study of Homo sapiens with 16 samples.

Results

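The ephrins and the Eph receptors are a cell-contact signalling family, and 10 of its genes (EFNA1, EFNA4, EFNA5, EFNB1, EFNB2, EPHA1, EPHA2, EPHB2, EPHB3 and EPHB4) were followed here on microarrays of Caco-2 cells. The members were taken by gene name among the non-control probes, which gave 12 probes for the 10 genes out of 41000 probes on the array. EFNA1 and EFNB2 had a pair of probes each and the other members had a single probe. All 12 were among the 40982 probes tested.

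Eph receptors are receptor tyrosine kinases, and their ligands, the ephrins, are themselves held in the membrane of a neighbouring cell, so that signals can run into both cells. Ephrin-A ligands are tethered by a lipid anchor and mainly bind EphA receptors, whereas ephrin-B ligands cross the membrane and mainly bind EphB receptors. In the intestine, EphB receptors and ephrin-B ligands are known for opposed gradients along the crypt axis that keep cells in their place.

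Caco-2 is an established line from a human colon carcinoma, which was used here in its undifferentiated state. All cells were seeded in minimum essential medium with 1% fetal calf serum, were stimulated for 6 h and were harvested with trypsin. MED-CTL cells stayed in that medium alone. PT-G cells received gliadin, a wheat storage protein, digested with pepsin and trypsin, PT cells received the blank digest made with these enzymes but no substrate, and p31-43 cells received a synthetic gliadin peptide at 150 µg/ml. For PT-G and PT the enzymes were inactivated by heat after the digestion, and the paper reports a check of this with a trypsin activity assay. Each condition had 4 one-colour arrays, from 4 independent experiments a few cell passages apart. The experiments were of 1 cell line, so the spread between arrays is that between its cultures, together with differences between arrays and slides.

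Levels are given as log2 of the median spot intensity after quantile normalization, and the change of a probe is the difference of the group means on this scale. The number of arrays limits the precision. The arrays fell into 4 runs, a run being the arrays whose names carry the same day, with 1 array of each condition in a run. They lay on 5 slides. In run 3 the PT array, and in run 4 the p31-43 array, lay on another slide than the rest of the run. Within these runs a difference that involves such an array is also one between slides. Median spot intensity ranged from 153 to 410 per array, over a local background of 48 to 65. Of 11 colon epithelium markers, 10 were well above background on all 16 arrays, whereas CDX1, a gut transcription factor, was so on 1 array. Of the markers of other cell types, 4 of 6 for fibroblasts (COL1A1, COL3A1, LUM and PDGFRB), 1 of 5 for endothelium (PECAM1) and 4 of 6 for leukocytes (CD3E, CD14, ITGAM and LYZ) were also well above background on all 16 arrays. COL1A2, CDH5, TEK and PTPRC were so on none. Over all arrays the log2 summed level ranged from 10.88 to 11.71 for the fibroblast list, 9.02 to 9.67 for the endothelial list and 10.59 to 11.56 for the leukocyte list, and none of these lists had a call in the 4 comparisons. The log2 summed level of the epithelial markers ranged from 19.81 to 20.03 in MED-CTL, 19.73 to 20.02 in p31-43, 19.79 to 19.87 in PT and 19.79 to 20.05 in PT-G. Among these epithelial markers KRT20, a keratin of differentiated gut cells, rose by 0.63 with PT-G (limma adjusted p = 0.025) and by 0.50 with PT (adjusted p = 0.088). CLDN3, a tight junction protein, rose by 0.25 and 0.34 (limma adjusted p = 0.269 and 0.076). All 4 passed the nominal threshold of 0.01, and their part in the results for the members was not tested. The list as a whole did not rise in this way. The median change of the 11 epithelial markers was 0.03 with PT-G, -0.08 with PT and -0.05 with p31-43, with 6, 5 and 4 of them above 0.

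EPHA2 showed the largest difference among the members, at 1.39 above MED-CTL in PT-G cells and 1.40 in PT cells on the log2 scale, with a difference of 0.13 for the peptide. EFNA4 rose under PT, by 0.50, and was 0.31 higher under PT-G. EFNB2 was 0.50 higher under PT-G and 0.36 higher under PT by its brighter probe. The other 7 genes differed from MED-CTL by at most 0.30 in any condition. At the threshold of nominal p under 0.01, limma called 0 of the 12 probes for PT-G against MED-CTL, where 3.44% of all probes were called, and 1 of 12 for PT against MED-CTL, where 3.64% were called. It called 0 of 12 for p31-43 against MED-CTL (0.388% of all probes) and 0 of 12 for PT-G against PT (0.0903% of all probes). At nominal p under 0.05, 2 of the 12, EPHA2 and EFNA4, passed under PT-G and the same 2 under PT, against 7.98% and 8.98% of all probes. Without a run block 0 of 12 passed an adjusted p of 0.05 under PT-G (0.944% of all probes), under PT (0.82%) and in the other 2 comparisons (0% each). The groups did not overlap for 0 of 12 probes under PT-G (3.87% of all probes), 1 of 12 under PT (5.08%), 0 of 12 under p31-43 (1.39%) and 0 of 12 between PT-G and PT (0.632%). With 12 probes, these counts are too small to tell the shares of the members from those of probes in general.

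**Figure D1:**
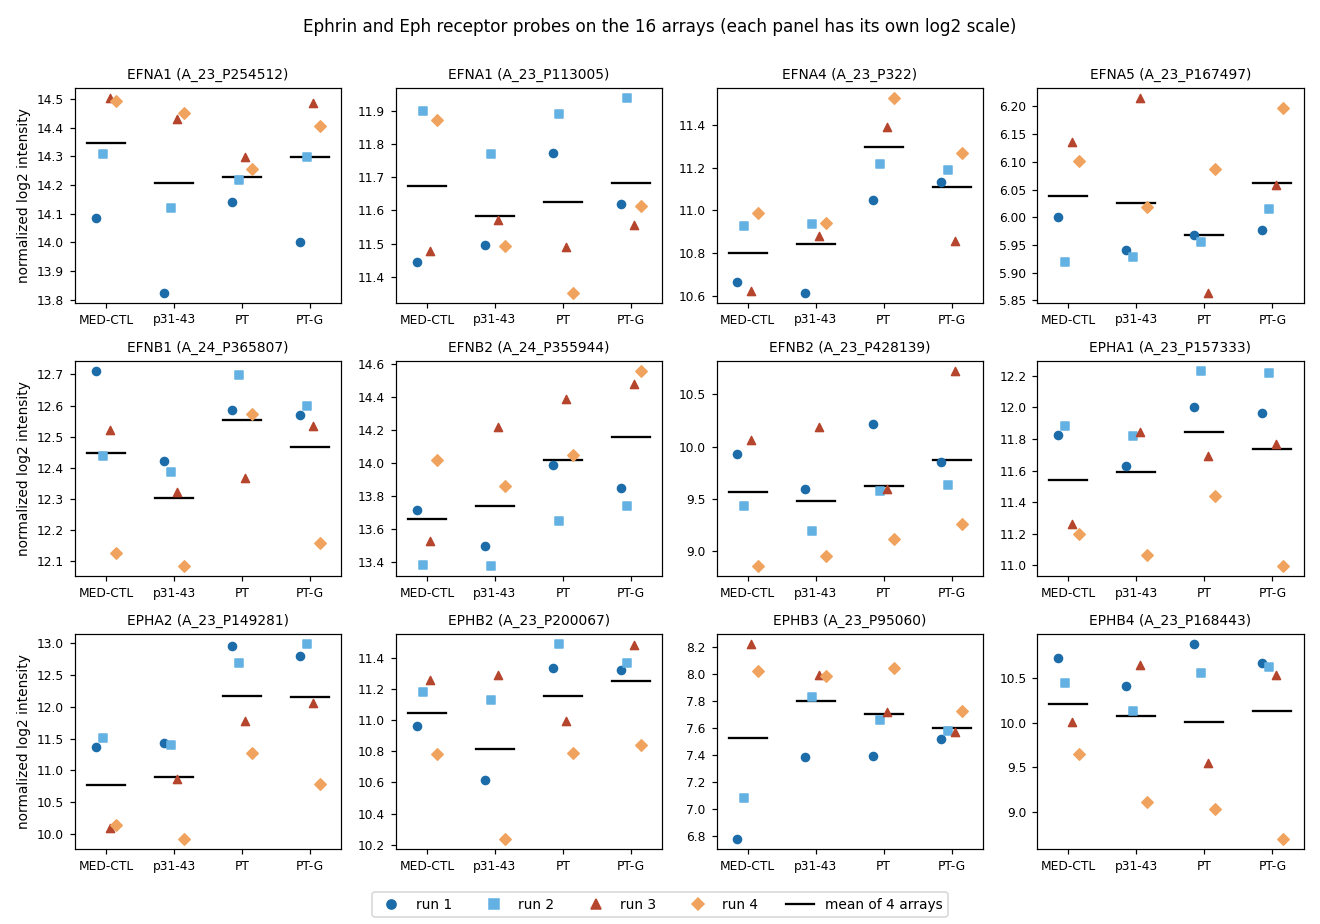
Normalized log2 intensity (vertical axis, each panel on its own scale) of the 12 ephrin and Eph receptor probes on each of the 16 arrays, by condition. A point is an array, its colour and shape mark the run, and the black line is the mean of the 4 arrays. EFNA4 is the 1 panel in which the PT arrays (11.05 to 11.53) lie above all MED-CTL arrays (10.62 to 10.99), and in the EPHA2 panel runs 1 and 2 lie above runs 3 and 4 in every condition.

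Among the ephrin-A ligands, EFNA4 encodes a lipid-anchored ligand of EphA receptors. In MED-CTL its level was 10.66, 10.92, 10.62 and 10.99 in runs 1 to 4. Under PT it was 11.05, 11.22, 11.39 and 11.53, and under PT-G it was 11.13, 11.19, 10.86 and 11.27. Under p31-43 it was 10.61, 10.93, 10.88 and 10.94. Every PT array lay above every MED-CTL array, a separation that 2.36% of all probes showed in this direction, while the PT-G and p31-43 arrays overlapped with MED-CTL. The change under PT was 0.50 (SE 0.13, limma adjusted p = 0.104), and it had the same sign in 4 of 4 runs. Its largest within-run difference, 0.77 in run 3, was between arrays of different slides. With the run as a block, which compares arrays within runs, the adjusted p of the limma fit was 0.0096. PT-G gave a difference of 0.31 (SE 0.13, limma adjusted p = 0.486), again higher in 4 of 4 runs, and the run block gave an adjusted p of 0.081. PT-G and PT differed by -0.18, with a 95% interval of -0.46 to 0.09.

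The start of EFNA4 lies on chromosome 1 and is shared with the readthrough gene EFNA4-EFNA3 in the RefSeq annotation, and the ephrin-A genes EFNA3 and then EFNA1 follow it. Its promoter, 250 bases before and 50 after the start on the plus strand at chr1:155063490-155063789 of GRCh38.p14, is shown because it belongs to the member called under PT, and none of the motifs described for EPHA2 was found in it, so it has no capitals.
EFNA4 promoter: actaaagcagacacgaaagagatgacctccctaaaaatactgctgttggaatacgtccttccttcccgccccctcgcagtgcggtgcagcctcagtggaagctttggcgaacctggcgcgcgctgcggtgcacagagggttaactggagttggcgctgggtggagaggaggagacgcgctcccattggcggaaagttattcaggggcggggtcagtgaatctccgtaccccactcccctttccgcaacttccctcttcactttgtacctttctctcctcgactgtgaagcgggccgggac

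EFNA1, its neighbour, encodes an ephrin-A ligand that binds EphA2. Its brighter probe, A_23_P254512, was at 14.08, 14.31, 14.50 and 14.49 in MED-CTL, at 14.00, 14.30, 14.48 and 14.41 under PT-G, and at 13.82, 14.12, 14.43 and 14.45 under p31-43. Both treatments were lower than MED-CTL in 4 of 4 runs, by 0.05 and 0.14, but all groups overlapped and neither difference passed the test (limma adjusted p = 1.00 for both). The PT arrays of this probe, at 14.14, 14.22, 14.30 and 14.25, were spread less than those of the other conditions. The dimmer probe of EFNA1, A_23_P113005, ranged from 11.35 to 11.94 over the 16 arrays and its group means from 11.58 to 11.68. Here the PT arrays, from 11.35 to 11.89, had the widest range of the 4 conditions. The readings of this pair of probes had a correlation of 0.05 over the 16 arrays and of 0.59 after centring each run, so they followed each other mainly within runs. These points share arrays and runs, and the correlation is a description.

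EFNA5, an ephrin-A ligand best known from axon guidance, was at the edge of detection, with its probe well above background on 3 of 16 arrays (1 each of MED-CTL, p31-43 and PT-G). Its normalized value lay between 5.86 and 6.22 on all arrays and gives only a bound for PT. Its differences, from -0.07 to 0.02 against MED-CTL, enter the counts and medians over the 12 probes but are not read as changes.

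The neighbouring ephrin-A gene EFNA3, which is not a member, passed the nominal threshold under PT, at 6.18 in MED-CTL and 6.47 under PT (difference 0.29, SE 0.09, limma adjusted p = 0.193). EFNA3 was also higher by 0.23 under PT-G and by 0.22 under p31-43, without passing the threshold, whereas EFNA4 differed by 0.04 under p31-43. Its probe was well above background on 10 of 16 arrays. Whether the probes of EFNA4 and EFNA3 read the shared readthrough transcript was not tested.

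Of the ephrin-B ligands, EFNB2 encodes a transmembrane ligand of EphB4 and of other EphB receptors. Its brighter probe, A_24_P355944, was at 13.72, 13.38, 13.53 and 14.02 in MED-CTL in runs 1 to 4, and at 13.85, 13.74, 14.48 and 14.56 under PT-G. Under PT it was at 13.99, 13.65, 14.39 and 14.05, and under p31-43 at 13.50, 13.38, 14.22 and 13.87. PT-G and PT were higher than MED-CTL in each of the 4 runs, although the groups overlapped, and runs 3 and 4 were above runs 1 and 2 by 0.49 on average. PT-G gave a difference of 0.50 (SE 0.23, limma adjusted p = 0.641), and the run block lowered the SE to 0.14, with which the probe passed the nominal threshold of 0.01 but not the adjusted one (adjusted p = 0.066). Under PT it was 0.36, with a limma adjusted p of 0.752 without and 0.167 with the run block. PT-G and PT differed by 0.14, with a 95% interval of -0.37 to 0.64, so a difference between the digest with gliadin and the blank digest was not detectable here.

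The dimmer EFNB2 probe, A_23_P428139, was at 9.93, 9.43, 10.06 and 8.86 in MED-CTL and at 9.85, 9.63, 10.72 and 9.26 under PT-G. Its differences were 0.30 (SE 0.36) under PT-G and 0.05 under PT, and it passed the threshold in neither comparison, with or without the run block. The correlation of the pair was 0.20 over the 16 arrays and 0.46 within runs. Under PT the value of the dimmer probe was not stable. It was 0.33 with the slide as a block, and ran from -0.18 to 0.22 when each array was left out. Its run 3 difference was -0.47. For this and every other probe, the PT and MED-CTL arrays of run 3 lay on different slides. The size for EFNB2 therefore rests on the probe and the setting.
EFNB2 lies on chromosome 13. Its promoter on the minus strand, chr13:106535613-106535912 of GRCh38.p14, is shown as that of the ligand that ranked next to EPHA2 and EFNA4, and held none of the motifs.
EFNB2 promoter: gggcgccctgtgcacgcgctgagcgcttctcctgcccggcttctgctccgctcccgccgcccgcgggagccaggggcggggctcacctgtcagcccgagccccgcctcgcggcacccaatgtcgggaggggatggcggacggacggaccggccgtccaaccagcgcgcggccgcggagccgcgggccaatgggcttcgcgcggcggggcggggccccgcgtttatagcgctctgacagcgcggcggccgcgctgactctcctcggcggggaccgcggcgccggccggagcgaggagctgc

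EFNB1, the other transmembrane ligand among the members, was at 12.71, 12.44, 12.52 and 12.12 in MED-CTL and at 12.42, 12.39, 12.32 and 12.08 under p31-43. It was lower under p31-43 in 4 of 4 runs, by 0.15 (SE 0.13, limma adjusted p = 1.00), and did not pass the test. Its differences under PT-G and PT were 0.02 and 0.11.

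Among the receptors, EPHA2 encodes the EphA receptor that epithelial cells are best known for, where it is activated by ephrin-A1. In MED-CTL its level was 11.36, 11.51, 10.08 and 10.14 in runs 1 to 4. Under PT-G it was 12.80, 12.99, 12.05 and 10.79, and under PT it was 12.97, 12.70, 11.77 and 11.27. Under p31-43 it was 11.44, 11.40, 10.86 and 9.92. In every run the PT-G and the PT array were above both the MED-CTL and the p31-43 array. Over all arrays the groups nevertheless overlapped, because the MED-CTL arrays of runs 1 and 2 were above the PT-G array of run 4. The within-run differences were 1.43, 1.48, 1.97 and 0.66 for PT-G and 1.60, 1.19, 1.69 and 1.14 for PT. The PT difference of run 3 was between arrays of different slides.

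Without a block the change of EPHA2 was 1.39 under PT-G (SE 0.54, limma adjusted p = 0.451) and 1.40 under PT (SE 0.54, limma adjusted p = 0.399), so neither passed the threshold of 0.01. With the run as a block the SE was 0.17 and both passed, with limma adjusted p = 9.92e-04 for PT-G and 9.89e-04 for PT. Leaving out the PT-G array of run 4, replicate 4 of that group, raised the unblocked PT-G value to 1.84, which passed the nominal threshold. For p31-43 the difference was 0.13, with a 95% interval under the run block of -0.25 to 0.51. PT-G and PT differed by -0.02, with a 95% interval of -1.18 to 1.15 without and -0.40 to 0.36 with the block.

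**Figure D2:**
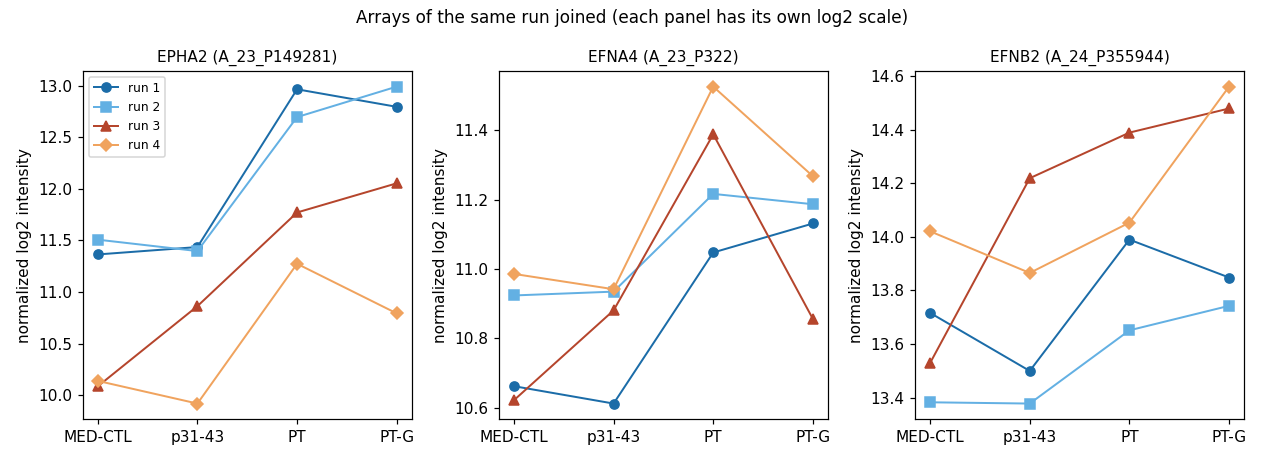
Normalized log2 intensity (vertical axis, each panel on its own scale) of EPHA2, EFNA4 and the brighter EFNB2 probe in the 4 conditions, with the arrays of a run joined by a line, which marks a shared run and no time course. The EPHA2 lines of runs 1 and 2 lie above those of runs 3 and 4, and PT and PT-G are above MED-CTL in each of the 4 runs, by 0.66 to 1.97.

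The replicate numbers in the labels gave a second pairing, in which MED-CTL replicates 1 and 2 stand in each other's run. With the replicate number as a block, EPHA2 under PT-G had an adjusted p of 0.0016 and the brighter EFNB2 probe one of 0.117, so that 2 of 12 member probes passed the nominal threshold, where 7.59% of all probes did. With the run as a block 3 of 12 passed under PT-G (EPHA2, EFNA4 and EFNB2), where 9.16% of all probes did, and 2 of 12 under PT (EPHA2 and EFNA4), where 10.3% did. At an adjusted p under 0.05 these were 1 and 2 of 12, against 5.75% and 6.56% of all probes. For p31-43 and for PT-G against PT the run block called 0 of 12 at the nominal threshold (1.38% and 0.315% of all probes).

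Set against the p31-43 arrays, a comparison added after the values were seen, EPHA2 was 1.26 higher under PT-G (limma adjusted p = 0.508) and 1.27 higher under PT (limma adjusted p = 0.591). With the run block the adjusted p values were 0.0017 and 0.0019. EFNA4 was 0.45 higher under PT than under p31-43 (limma adjusted p = 0.172), which the run block gave an adjusted p of 0.017. Without a block 0 of 12 member probes passed the nominal threshold for PT-G against p31-43 (3.73% of all probes) and 1 of 12 for PT against p31-43 (3.15%). With the run block 1 and 2 of 12 passed the adjusted one (6.29% and 4.98% of all probes). These comparisons share the PT-G and PT arrays with those above.

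The gene for EPHA2 lies on chromosome 1, and its promoter on the minus strand at chr1:16156020-16156319 of GRCh38.p14 is shown because the gene had the largest values of the family. Capitals mark a match to the cAMP response element.
EPHA2 promoter: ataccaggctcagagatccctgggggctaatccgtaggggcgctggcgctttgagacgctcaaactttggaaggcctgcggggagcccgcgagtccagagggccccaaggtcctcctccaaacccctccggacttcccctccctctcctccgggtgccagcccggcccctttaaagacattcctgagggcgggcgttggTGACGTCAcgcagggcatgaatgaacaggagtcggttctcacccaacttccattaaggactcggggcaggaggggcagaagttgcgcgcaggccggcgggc

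All 10 members matched an entry among 35114 RefSeq promoters of 300 bases, and 5 motifs were searched on both strands. The cAMP response element (TGACGTCA) was found in 1.85% of all promoters and among the members in that of EPHA2 alone. The EGR motif (GCGNGGGCG) was in 9.43% of all promoters and in those of EFNA1, EFNA5, EPHA1 and EPHB2. The AP-1 motif (TGANTCA, in 7.71%), an ETS motif (CCGGAAGT, in 4.14%) and the serum response element (in 0.0342%) were in no member promoter. A match is a description of the letters only. The members' promoters held 58.3% to 83.0% G and C, and the median of all promoters was 58.7%.

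EPHA1, the first-named member of the receptor family, was at 11.82, 11.88, 11.26 and 11.20 in MED-CTL in runs 1 to 4. The PT array of the same run was higher by 0.18, 0.35, 0.44 and 0.24, a mean difference of 0.30 (SE 0.27, limma adjusted p = 0.836). Under PT-G the difference was 0.20. The groups overlapped and the threshold was passed in neither comparison.

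EPHB2, a receptor of crypt cells and a known Wnt target gene, was at 10.96, 11.18, 11.26 and 10.79 in MED-CTL, at 11.32, 11.37, 11.48 and 10.84 under PT-G and at 10.62, 11.13, 11.29 and 10.24 under p31-43. The PT-G array was above the MED-CTL array in each of 4 runs, with a difference of 0.21 (SE 0.23, limma adjusted p = 1.00), and the p31-43 mean was lower by 0.23, which also did not pass.

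EPHB3, another crypt receptor, was at 6.77, 7.08, 8.22 and 8.02 in MED-CTL and at 7.52, 7.57, 7.57 and 7.73 under PT-G. The MED-CTL arrays thus spread over a wider range than the PT-G arrays, and the difference of the means was 0.07, with 0.18 under PT and 0.27 under p31-43 (SE 0.27 for each). EPHB4, the receptor of EFNB2 in vessel formation, was at 10.73, 10.45, 10.01 and 9.65 in MED-CTL and at 10.67, 10.63, 10.54 and 8.69 under PT-G. Its differences ranged from -0.20 to -0.08 over the 3 conditions, with SE 0.51, and the PT-G array of run 4 was the lowest of all 16. Without that array, replicate 4, the PT-G difference was 0.40, so its direction rests on 1 array, and under PT it ran from -0.50 to 0.12 when each array was left out.

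**Figure D3:**
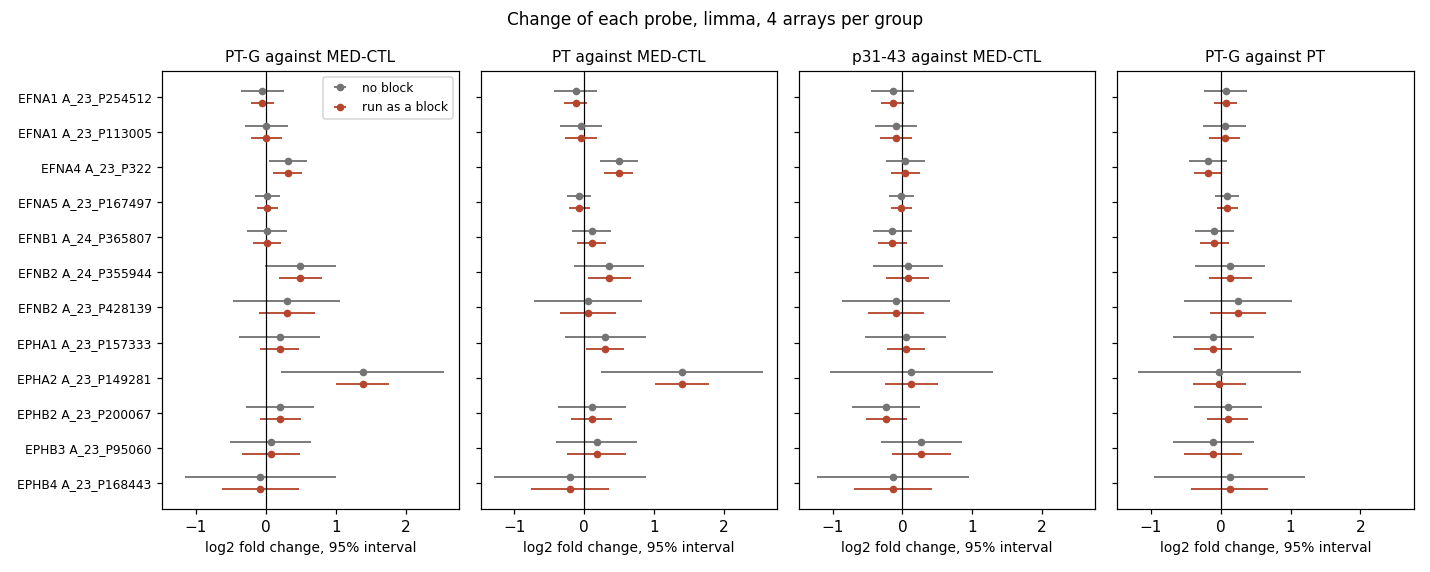
Log2 fold change (horizontal axis) with its 95% interval for each of the 12 probes in the 4 comparisons, from the limma model without a block (grey) and with the run as a block (red), 4 arrays per group. The intervals of EPHA2 for PT-G and PT shrink to 1.00 to 1.77 and 1.02 to 1.79 with the block, while those for p31-43 and for PT-G against PT span 0.

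The median change over the 12 member probes was 0.13 under PT-G and 0.11 under PT, beside -0.01 over all probes in both comparisons. Under p31-43 it was -0.05, beside -0.0011 over all probes. Differences were above 0 for 10 of 12 probes with PT-G, for 8 with PT and for 5 with the peptide. Over the 11 probes without EFNA5 the medians were 0.20, 0.11 and -0.09, with 9, 8 and 5 above 0. With only the brightest probe of each of the 10 genes they were 0.13, 0.14 and 0.015, with 8, 7 and 5 above 0. The sign of the median under p31-43 thus rests on the second probes of EFNA1 and EFNB2. These comparisons share the MED-CTL arrays.

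When the variation of each probe was divided between run, condition and the rest, run held the largest share in 10 of the 12 probes, condition in EFNA4 and the rest in EFNA5. For EPHA2 the shares were 49.0% run, 46.7% condition and 4.3% rest. For EFNA4 condition held 62.2% and run 22.4%, and for EPHB4 run held 78.9% and condition 1.26%. Over probes well above background on all arrays the median share was 55.3% for run and 14.1% for condition. Runs 3 and 4 were below runs 1 and 2 by 1.28 for EPHA2, by 0.90 for EPHB4 and by 0.54 for EPHA1, and above them by 0.51 for EPHB3 and 0.49 for the brighter EFNB2 probe. Within each run the members followed each other unevenly. Over the 16 run-centred arrays the highest correlations between members were those of EPHA2 with EFNA4 (0.83), EFNB2 (0.79) and EPHA1 (0.78), and the lowest was that of EFNB2 with EPHB3 (-0.37). The points share runs and conditions, and these are descriptions.

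**Figure D4:**
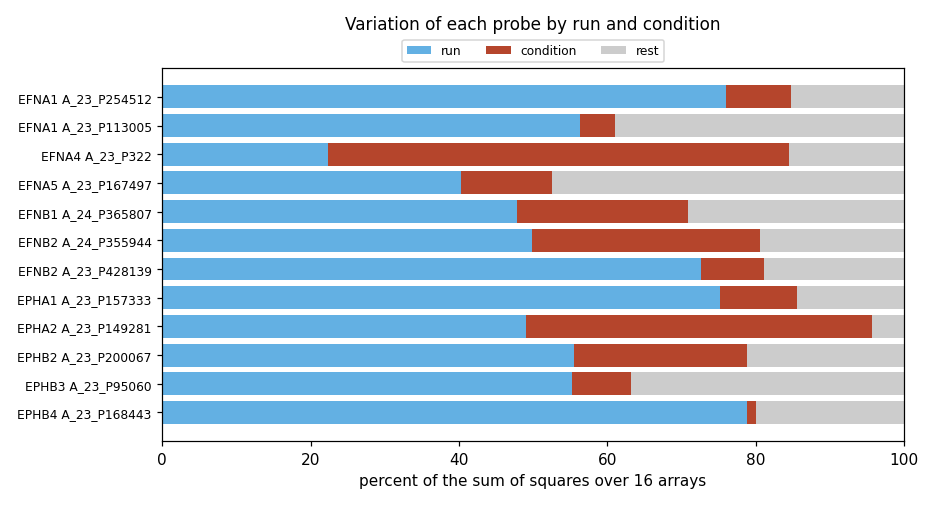
Share of the sum of squares over the 16 arrays (horizontal axis, percent) that lay between runs, between conditions and in the rest, for each of the 12 probes. Condition is the largest share for EFNA4 alone (62.2%), and the rest is smallest for EPHA2 (4.3%).

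The genes whose run-centred pattern over the 16 arrays was most like that of EPHA2, among 13574 genes, were FAM109A (correlation 0.973), CACNB3 (0.970), SLC16A3 (0.968), FLJ37078 (0.967) and MLX (0.966). Without centring, SLC16A3 had a correlation of 0.26 with EPHA2, whereas MLX had 0.98. For the brighter EFNB2 probe they were KIAA0350 (0.964), ST6GAL1 (0.963), LPHN1 (0.962), FRMD6 (0.959) and FAM46A (0.945).

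Of the 12 other ephrins and Eph receptors on the array, EFNB3, EPHA4 and EPHB6 were well above background on all 16 arrays and EPHA5, EPHA6 and EPHB1 on none. EFNA3 under PT was the 1 call among them at the nominal threshold, and there was none in the other 3 comparisons. The median change of these 12 was 0.03 with PT-G, 0.01 with PT and -0.01 with the peptide. Among 40 measured adaptors and effectors that act below these receptors, 0 were called in any of the 4 comparisons. Their median change was 0.05 with PT-G, -0.01 with PT and 0.03 with the peptide. Among 17 proteases and phosphatases that cut or dephosphorylate the family, the 1 call was MMP9, a secreted gelatinase, which fell by 0.27 under p31-43, from 7.89 to 7.62 (SE 0.07, limma adjusted p = 1.00). The medians of these 17 were -0.04 with PT-G, -0.11 with PT and -0.03 with the peptide.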

How the data were processed

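RNA of 16 Caco-2 cultures was hybridised to one-colour Agilent 4x44K arrays, 4 per group, and groups were taken from the labels. The authors deposited, per array, the Feature Extraction output with the median foreground intensity of each spot (linear, not normalized), and a table of log2 values that the authors made with limma by quantile normalization without background correction. From the deposited intensity values, log2 of the median signal of 43376 non-control spots was quantile normalized, spots marked as outliers (0.256%, none of a member) were left out, spots of a probe were averaged, and probes with fewer than 3 arrays in a group were dropped (18). These values differed from the deposited log2 table by at most 0.021 for the members. No background was subtracted, so changes of dim probes are compressed. All probes were fitted with limma 3.58.1 in R 4.3.3 (4 groups in 1 model, moderated 2-sided test, Benjamini-Hochberg adjustment over 40982 probes). The nominal threshold of 0.01 is that of the study.

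The members and gene lists were chosen with earlier results of these data known. Every member probe is accounted for, the brightest probe led a gene, and of the other family, effector, protease and phosphatase lists the genes past the nominal threshold were named, as were, after their values were seen, the markers past it. In addition, the 5 genes most correlated with EPHA2 (largest PT-G change) and EFNB2 were named. Replicate numbers paired the samples for PT-G and for p31-43 against MED-CTL (correlations of same-numbered deviations over 0.1 in 4 of 4 pairs), not for PT against MED-CTL (2 of 4) nor PT-G against PT (3 of 4). By run it was 4 of 4 for PT-G and for p31-43 against MED-CTL. It was 3 of 4 for PT against MED-CTL (lowest correlation -0.018) and for PT-G against PT (lowest 0.037). The alternatives were blocks, background corrections, scalings, filters, array weights and leaving out each array. Tested on simulated data for PT-G against MED-CTL over 40705 probes, the model recovered 117 of 200 changes of 0.5, 183 of 200 of 1 and 198 of 200 of 2 (log2), and called 1.10% of unchanged probes. Probe sequences and proteins were not used here.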

Additional observations from a re-analysis of the deposited data

Results flagged for a closer look

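Of 48 sets of 4 arrays (12 probes in 4 conditions), 3 held an array far from the other 3, where chance flags about 1 in 20. All were PT-G arrays. EPHB4 in PT-G replicate 4 was at 8.69, and the nearest of the other arrays was at 10.54, a gap of 0.934 of the whole range. EFNB1 in the same array was at 12.16, with the nearest at 12.54 (0.859 of the range). The dimmer EFNA1 probe in PT-G replicate 2 was at 11.94, with the nearest at 11.62 (0.834 of the range).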

How the results depend on the processing

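With no block 0 of 12 member probes passed for PT-G against MED-CTL. The number was 2 with the replicate block, 3 with the run, 3 with the slide, 2 when early and late runs formed the block, 2 under array weights, and 0 to 1 when each array was left out (1 without PT-G replicate 3, EFNA4, or replicate 4, EPHA2). For PT against MED-CTL it was 1, and 2 with the replicate, run, slide, or early and late block. For p31-43 against MED-CTL and PT-G against PT it was 0 under every alternative that was run. EFNA4 under PT passed the nominal threshold in 14 of 14 alternatives and in 16 of 16 fits without 1 array. An adjusted p under 0.05 was reached in 3 of these 14 alternatives and in 0 of these 16 fits.

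Over all probes, those past the nominal threshold numbered 1408 for PT-G, 1491 for PT, 159 for p31-43 and 37 for PT-G against PT without a block. They numbered 3109, 3480, 432 and 94 with the replicate block, 3755, 4217, 567 and 129 with the run block, 5013, 4334, 1527 and 148 with the slide block, 2397, 2483, 322 and 75 for early and late runs, and 3020, 2630, 575 and 213 under array weights. A fit of only the groups compared gave 889 for PT-G, 82 for p31-43 and 14 for PT-G against PT. Median scaling gave 291 for p31-43 and 8 for PT-G against PT, and leaving out dim probes gave 82 and 2. Without single MED-CTL arrays the p31-43 number ran from 88 to 329, and PT-G against PT gave 84 without PT replicate 1 and 64 without PT-G replicate 1.

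Signs turned only for differences that were not called. With array weights these were EPHB4 (0.062) under PT-G, the dimmer EFNA1 probe (0.074) under PT, the brighter EFNB2 probe (-0.0086), EPHA1 (-0.11) and EPHA2 (-0.085) under p31-43, and the brighter EFNA1 probe (-0.0097), the brighter EFNB2 probe (-0.0024) and EPHA2 (0.21) for PT-G against PT. With the slide block they were EPHB4 (0.070) under PT, EFNA5 (0.035) under p31-43, and the dimmer EFNB2 probe (-0.027), EPHB2 (-0.094) and EPHB4 (-0.15) for PT-G against PT. Median scaling turned the brighter EFNA1 probe (0.041) and EFNA5 (-0.037) under PT-G, the dimmer EFNA1 probe (0.017) under p31-43 and EPHA2 (0.027) for PT-G against PT. Background-subtracted signal, normexp correction and the mean foreground turned the dimmer EFNA1 probe under PT-G (-0.0095, -0.0043 and -0.0052) and EFNA5 under p31-43 (0.049, 0.078 and 0.066). Background-subtracted signal turned EFNA5 (-0.0094) and normexp turned EPHB3 (-0.0020) under PT-G. Without PT-G replicate 4, EPHB4 was 0.40 under PT-G and EPHA2 0.44 for PT-G against PT. The cause was not tested. Leaving out single arrays turned the sign of 6 of 12 probes for PT-G, 6 for PT, 7 for p31-43 and 8 for PT-G against PT. EFNA5 had no value once dim probes were left out, since signal over background limits it.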
